A study of Mus musculus with 12 samples.

Results

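The 9 genes described here encode the T cell receptor (TCR) complex and the proteins that act first when it is engaged. They are the CD3 chains *Cd3e*, *Cd3d*, *Cd3g* and *Cd247*, the coreceptor *Cd4*, the kinases *Lck* and *Zap70*, the adaptor *Lat* and the phosphatase *Ptprc*. They were chosen by name for these roles, with earlier results of these data known, out of 56691 genes in the table. Each was found by its Ensembl identifier. All 9 were expressed: the lowest count of any of them in any sample was 2066 reads.

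Messenger RNA was sequenced from the 3′ end in splenic CD4+ T cells of 12 Tg4 *Nr4a3*-Tocky *Il10*-GFP mice, 1 library per mouse. Tg4 mice carry a transgenic TCR for myelin basic protein (MBP), and *Nr4a3*-Tocky is a reporter in which the *Nr4a3* gene drives a Timer protein that turns from blue to red. Sorted cells were CD4+, negative for a set of markers that included CD11b and CD8, and positive for both Timer forms, a population called responder cells. Every mouse, controls included, received 4 mg/kg of [4Y]-MBP peptide, 0.5 mg of antibody 24 h later, and after a further 30 min a second peptide dose of 0.4 mg/kg, and spleens were taken 12 h after that second dose.

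The 4 groups, of 3 mice each, differed in the antibody given. The isotype group received a pool of rat IgG1 and rat IgG2a, the anti-Lag3 group clone C9B7W, the anti-PD-L1 group clone MIH5, and the CB (co-blockade) group both blocking antibodies at equal parts. Mice of both sexes were used, typically at 6 to 8 weeks of age. Cells were sorted in batches of 4, and each group was stained with a CD4 antibody of a different colour, so that stain and treatment cannot be told apart.

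The TCR has no enzymatic activity of its own. Its CD3 and zeta chains carry tyrosine motifs that Lck, brought in by CD4, phosphorylates, ZAP-70 then binds these motifs and phosphorylates LAT, and CD45 keeps Lck active by removing an inhibitory phosphate. Sustained stimulation is known to remove TCR and CD3 proteins from the surface of T cells, a step that RNA counts do not measure.

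Total counts on genes were between 16449370 and 22151025 reads per sample (median 19176439). Of these, 14.3% to 21.9% fell on a single gene (ENSMUSG00000119584) that has no symbol in the annotation used. Levels are given as CPM, counts per unit of library size after TMM scaling in edgeR, and as mean ± SD over 3 mice. Reads of 3′ libraries do not grow with transcript length and their yield differs between genes, so levels were compared within a gene and not between genes. Differences are log2 fold changes with their standard error (SE), and a gene was called where its adjusted p in edgeR's quasi-likelihood test was under 0.05 over the 15138 genes tested. Bulk counts cannot separate fewer expressing cells from less RNA per cell.

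The sorted cells carried the RNA of their label, with *Cd3e*, *Cd3d*, *Cd3g* and *Cd4* high in all 12 samples. Summed markers of other cells were low: 1.52 to 20.6 CPM for 5 B cell genes, 4.29 to 14.3 for 5 myeloid genes with *Cd14* at 0 reads, up to 4.35 for 3 NK cell genes, up to 3.31 for 3 platelet genes and 3.59 to 15.1 for 3 gamma-delta T cell genes. The 2 CD8 genes summed to 24.6 to 46.4 CPM, nearly all of it *Cd8b1*. Erythroid RNA was the exception, since the summed level of *Hbb-bs*, *Hbb-bt*, *Hba-a1* and *Hba-a2* was 241 to 442 CPM in the isotype group, 211 to 284 with anti-Lag3, 169 to 215 with anti-PD-L1 and 149 to 198 in the CB group. Of these 4 genes *Hbb-bs* (log2 fold change -0.75) and *Hbb-bt* (-0.99) were called lower in CB than in isotype. Their part in the results below was not tested. The marker sums set different genes side by side without a sample of those other cells, so they describe levels and do not measure purity.

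*Cd3e*, *Cd3d* and *Cd3g* lie side by side on chromosome 9 of GRCm38. *Cd3g* (ENSMUSG00000002033, 44969572 to 44980431, minus strand) and *Cd3d* (ENSMUSG00000032094, 44981786 to 44987339, plus strand) are divergent, with their starts 1355 bases apart, and *Cd3e* (ENSMUSG00000032093, 44998740 to 45009627, minus strand) follows, so that the 3 genes span 40056 bases. *Cd247*, the gene of the zeta chain, lies apart on chromosome 1 (ENSMUSG00000005763, 165788681 to 165877277, plus strand). The 250 bases before each start are shown because these 4 genes make the signalling chains of a single complex. Whether their changes differed from each other was not tested. The sequences come from RefSeq for GRCm38.p6, and the capitals mark GGAAGT or its reverse complement ACTTCC, a core bound by ETS factors. The windows, in the order printed, are chr9:45009612-45009861 on the minus strand, chr9:44981536-44981785 on the plus strand, chr9:44980432-44980681 on the minus strand and chr1:165788431-165788680 on the plus strand, each written 5′ to 3′ on its gene's strand.
Cd3e: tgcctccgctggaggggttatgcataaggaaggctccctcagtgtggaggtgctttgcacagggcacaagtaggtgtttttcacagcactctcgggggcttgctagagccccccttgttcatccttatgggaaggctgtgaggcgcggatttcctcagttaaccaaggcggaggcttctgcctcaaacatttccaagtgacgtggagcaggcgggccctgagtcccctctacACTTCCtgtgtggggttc
Cd3d: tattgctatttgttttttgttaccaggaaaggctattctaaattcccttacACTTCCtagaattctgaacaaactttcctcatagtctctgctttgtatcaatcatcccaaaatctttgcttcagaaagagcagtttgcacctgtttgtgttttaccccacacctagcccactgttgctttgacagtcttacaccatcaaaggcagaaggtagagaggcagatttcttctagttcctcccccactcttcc
Cd3g: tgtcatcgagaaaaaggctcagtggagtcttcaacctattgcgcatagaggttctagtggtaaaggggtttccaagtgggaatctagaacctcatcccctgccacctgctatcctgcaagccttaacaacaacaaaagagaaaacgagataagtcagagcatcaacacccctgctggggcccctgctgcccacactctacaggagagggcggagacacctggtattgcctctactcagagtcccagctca
Cd247: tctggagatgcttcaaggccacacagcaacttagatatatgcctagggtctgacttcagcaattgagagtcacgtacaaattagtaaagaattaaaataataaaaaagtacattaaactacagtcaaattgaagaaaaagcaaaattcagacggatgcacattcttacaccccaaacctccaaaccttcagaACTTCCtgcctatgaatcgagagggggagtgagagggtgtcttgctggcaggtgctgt

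Positions are counted from the RefSeq start, which for *Cd3e* lies inside the GENCODE gene given above, so that its window takes in the first bases of that gene. The ETS core stood 18 to 13 bases before the RefSeq start of *Cd3e*, 199 to 194 before that of *Cd3d* and 58 to 53 before that of *Cd247*, and the *Cd3g* window held none. With both strands searched, 6 of the 8 genes that have a promoter entry held it in at least 1 window, in 8 of their 12 windows, against 19.7% of all 32851 promoter windows of this length. Genes with several starts have several windows, and these 8 genes were not matched to other promoters in any property. The motifs were chosen with these sequences in view, so the shares are description and no test of enrichment. The shorter NFAT core GGAAA (or TTTCC), which shares its first letters with the ETS core although no match of either is a match of the other, was in 8 of the 12 windows, from 7 of the 8 genes, against 55.6% of all windows. The RUNX core TGTGGT (or ACCACA) was in 2 of the 12 windows, those of *Lck* and *Zap70*, against 14.0% of all. *Cd4* has no promoter entry.

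CB against isotype asks how these genes differed in responder cells when both pathways were blocked. The paper reports a larger share of responder cells with CB than with isotype or either single antibody. The sorted cells can therefore be a different part of the CD4+ T cells in each group, and the effect of this was not tested. The RNA level of *Cd4* fell by 29.5% and that of *Cd3e* fell by 23.5%, while none of the other 7 genes passed the test, and *Lat* and *Ptprc* lay close to 0. So 2 of 9 were called, both lower, where 4.29% of all genes tested were called (1.96% lower and 2.33% higher). At an unadjusted p under 0.05 there were 4 of 9, where 14.9% of all genes were. The median log2 fold change of the 9 was -0.17, beside 0 over all genes tested, and 7 of the 9 values were below 0. In 4 of 9 genes (*Cd3e*, *Cd3d*, *Cd247* and *Cd4*) every CB sample was below every isotype sample, which held for 9.62% of all genes. Since the 9 were chosen with earlier results of these data known, these shares are description and no test of enrichment.

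*Cd3e* encodes CD3 epsilon, which pairs with both the gamma and the delta chain. It stood at 216, 233 and 258 CPM in isotype samples 1 to 3 and at 201, 182 and 158 in CB samples 1 to 3. It stood at 215, 224 and 202 CPM with anti-Lag3 and at 214, 204 and 202 with anti-PD-L1. All 3 CB samples were the lowest of the 12, the anti-Lag3 samples overlapped with isotype, and the anti-PD-L1 samples lay just below it. From 236 ± 21.2 to 180 ± 21.5 CPM (n = 3 each), *Cd3e* fell by 0.39 on the log2 scale (SE 0.11, adjusted p = 0.0401). The call held in 6 of 12 fits that left out 1 sample each. It was lost without isotype sample 2 or 3, anti-Lag3 sample 2 or 3, or CB sample 2 or 3, and without CB sample 3 the value was -0.30 (adjusted p = 0.276).

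*Cd3d* and *Cd3g* encode the delta and gamma chains, each of which pairs with epsilon. *Cd3d* was at 578, 670 and 623 CPM with isotype and at 572, 550 and 541 with CB. The groups did not overlap, though CB sample 1 and isotype sample 1 were close, and the log2 fold change of -0.17 (SE 0.09, adjusted p = 0.378) did not pass. *Cd3g* was at 135, 145 and 169 CPM with isotype and at 108, 139 and 107 with CB, a log2 fold change of -0.34 (SE 0.13, adjusted p = 0.166), with CB sample 2 inside the isotype range. Without that sample the value was -0.47 and passed (adjusted p = 0.0484).

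*Cd247* encodes the zeta chain, which holds most of the tyrosine motifs of the complex. Its level was 427, 436 and 387 CPM with isotype and 353, 349 and 307 with CB. The groups did not overlap. The log2 fold change of -0.31 (SE 0.10) missed the threshold in edgeR's test of the group means (adjusted p = 0.0757) but passed in DESeq2 (adjusted p = 0.00797). It also passed in edgeR with the replicate number as a block (adjusted p = 0.0411), though the numbers were not taken to pair the samples. *Pou2f1*, on the opposite strand, shares 12124 bases with *Cd247* and had 12756 reads against its 88366. The strand setting of the counting is not given in the sources used here, so reads in that stretch could belong to either gene.

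The TCR alpha and beta chains themselves, which bind the peptide and its MHC molecule, showed no call. Tg4 cells carry a transgenic TCR, and whether counts on the chain genes came from it or from the endogenous genes was not examined. The constant genes *Trac*, *Trbc1* and *Trbc2* had log2 fold changes of -0.06, -0.08 and -0.13 between CB and isotype, and 0 of 3 passed edgeR's test, also at an unadjusted p under 0.05 and in DESeq2. For *Trac* the 95% interval ran from -0.26 to 0.15. The value measured for *Cd3e* lay outside it, but the interval of *Cd3e* (-0.61 to -0.16) overlapped it, and a difference between the genes was not tested.

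*Cd4* encodes the coreceptor that binds MHC class II and carries Lck to the receptor. The gene lies on chromosome 6 (ENSMUSG00000023274, 124864692 to 124888221, minus strand), 16139 bases from *Lag3* on the same strand. Its level was 311, 318 and 277 CPM with isotype and 223, 214 and 202 with CB. With anti-Lag3 it was 286, 222 and 238 CPM, and with anti-PD-L1 it was 223, 296 and 241. The CB samples were all below the isotype samples, while the groups with a single antibody reached from the upper end of the CB range into the isotype range. From 302 ± 22 to 213 ± 10.5 CPM, *Cd4* fell by 0.50 on the log2 scale (SE 0.12, adjusted p = 0.00918). The call held in 10 of 12 fits that left out 1 sample each and was lost without isotype sample 2 (-0.47, adjusted p = 0.0513) or CB sample 3, with log2 fold changes from -0.57 to -0.47. The cells were sorted on CD4 protein, with a CD4 antibody of a different colour in each group. Whether that gate affected the RNA level of *Cd4* was not tested.

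**Figure D1:**
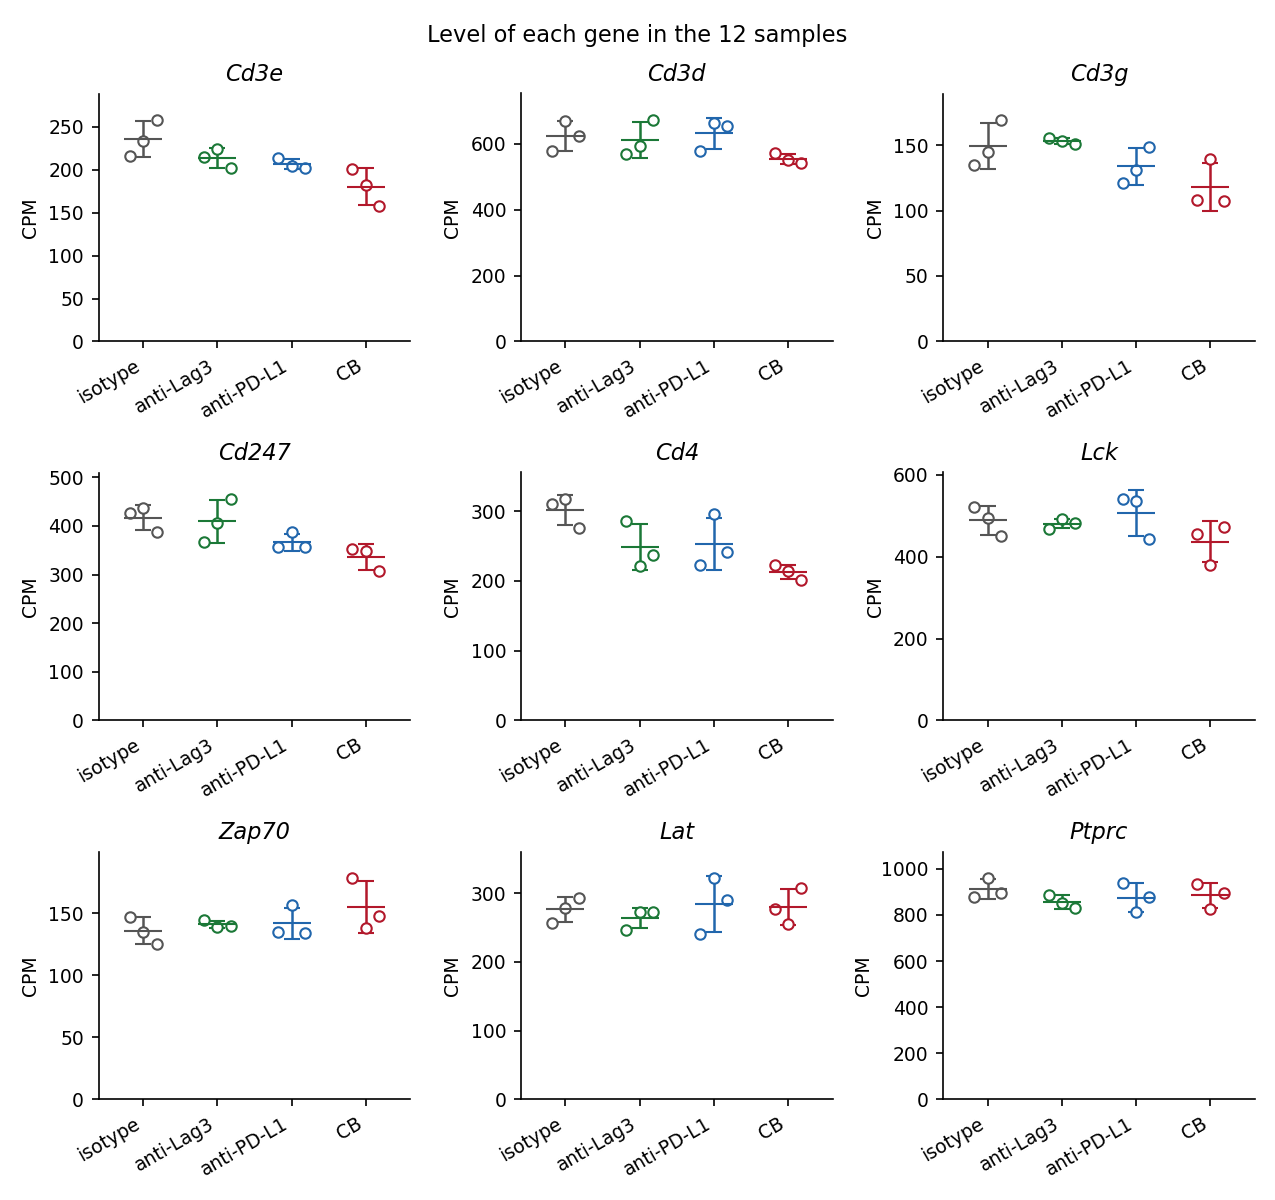
Level of each of the 9 genes (y axis, CPM after TMM scaling, from 0) by treatment group (x axis); circles are single mice, and the lines show the mean and SD of 3 mice. In *Cd4*, *Cd3e*, *Cd247* and *Cd3d* the 3 CB circles lie below the 3 isotype circles, while the circles of *Zap70*, *Lat*, *Lck* and *Ptprc* overlap.

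*Lck*, the Src family kinase that phosphorylates the CD3 and zeta chains (chromosome 4, 129548344 to 129573641), was at 521, 496 and 451 CPM with isotype and at 456, 381 and 474 with CB. The ranges overlapped, and the log2 fold change was -0.16 (SE 0.10, adjusted p = 0.441). *Zap70*, the kinase that docks on the phosphorylated chains (chromosome 1, 36761798 to 36782818), had the largest positive value of the 9 genes. It was at 147, 135 and 125 CPM with isotype and at 178, 138 and 148 with CB, a log2 fold change of 0.19 (SE 0.12, adjusted p = 0.467). Its highest value came from CB sample 1, and the other CB samples lay within or just above the isotype range.

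*Lat*, the membrane adaptor on which phospholipase C gamma and its partners assemble (chromosome 7, 126363824 to 126369570), was at 257, 279 and 293 CPM with isotype and at 277, 255 and 308 with CB. The log2 fold change was 0.02, with a 95% interval from -0.21 to 0.25. *Ptprc* encodes CD45 (chromosome 1, 138062861 to 138175708). It stood at 876, 960 and 897 CPM with isotype and at 934, 827 and 896 with CB, a log2 fold change of -0.04 with an interval from -0.20 to 0.12. For both genes the interval leaves out the values measured for *Cd4* and *Cd3e*, but it overlaps the interval of *Cd3e* (-0.61 to -0.16). Whether the changes differed between genes was not tested. The gene *A130071D04Rik* lies within *Ptprc* on the same strand and had 10429 reads beside its 204379.

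Each single antibody against isotype asks how responder cells differed when 1 pathway was blocked. In both comparisons *Cd4* had the largest log2 fold change of the 9 genes in size, and no member passed. With anti-PD-L1 the log2 fold change of *Cd4* was -0.25 (SE 0.12, adjusted p = 0.593), those of *Cd3e* and *Cd247* were both -0.19, and the other 6 lay between -0.16 and 0.06. The count was 0 of 9 in edgeR, where 0.033% of all genes were called, 1 of 9 at an unadjusted p under 0.05 (7.84% of all genes) and 0 in DESeq2. With anti-Lag3 *Cd4* had a value of -0.28 (SE 0.12, adjusted p = 0.805) and *Cd3e* one of -0.14, while *Cd247* was at -0.03 and *Cd3g* at 0.04. That comparison too gave 0 of 9 in edgeR, beside 0% of all genes, 1 of 9 at an unadjusted p under 0.05 (5.21% of all genes) and 0 in DESeq2. Both comparisons use the same 3 isotype samples, so their values are not independent.

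CB against each single antibody asks how responder cells differed when the second antibody was added. Against anti-PD-L1, the CB values were -0.25 for *Cd4*, -0.21 for *Lck*, -0.20 for *Cd3e* and -0.19 for *Cd3d*, with adjusted p-values from 0.523 to 0.561 in edgeR. *Cd3d* was at 577, 664 and 652 CPM with anti-PD-L1, all above the 3 CB samples, the highest of which was at 572. The share of all genes whose samples stood apart in this comparison was not counted. Here 0 of 9 were called, beside 0.37% of all genes, with 3 of 9 at an unadjusted p under 0.05 (9.08% of all genes) and 0 in DESeq2.

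Against anti-Lag3, the CB values were -0.38 for *Cd3g* (SE 0.13, adjusted p = 0.248), -0.29 for *Cd247* (SE 0.10, adjusted p = 0.252) and -0.25 for *Cd3e*. *Cd3g* was at 156, 153 and 151 CPM with anti-Lag3, a narrow range above all 3 CB samples. *Cd247* was at 368, 406 and 455 CPM with anti-Lag3, also above every CB sample. How large a share of all genes stood apart like this was not counted. edgeR called 0 of 9, beside 0.694% of all genes, and 3 of 9 stood at an unadjusted p under 0.05 (9.46% of all genes). DESeq2, which called 280 genes there where edgeR called 105, called *Cd247* (adjusted p = 0.0446).

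The groups with a single antibody were also set against each other. The values ran from -0.20 for *Cd3g* to 0.11 for *Lat*, and 0 of 9 passed edgeR's test, with 0 at an unadjusted p under 0.05 (4.69% of all genes) and 0 in DESeq2. The percentage of all genes called was 0.

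The interaction was computed by subtracting the effects of the single antibodies from that of CB, and asks whether the combination differed from the sum of both single antibodies. For *Cd4* it was 0.03 with a 95% interval from -0.31 to 0.37, and for *Cd3e* it was -0.06 with an interval from -0.38 to 0.26. Thus for *Cd4* the single values of -0.25 and -0.28 stand beside -0.50 for CB, and for *Cd3e* -0.19 and -0.14 stand beside -0.39. The most negative values were those of *Cd3g* (-0.22), *Lck* (-0.19) and *Cd3d* (-0.16), with intervals that include 0. By edgeR 0 of 9 were called, beside 0% of all genes, with 0 of 9 at an unadjusted p under 0.05 (5.93% of all genes) and 0 in DESeq2. Their standard errors ran from 0.11 for *Ptprc* to 0.18 for *Cd3g*, larger than those of the comparisons between groups.

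**Figure D2:**
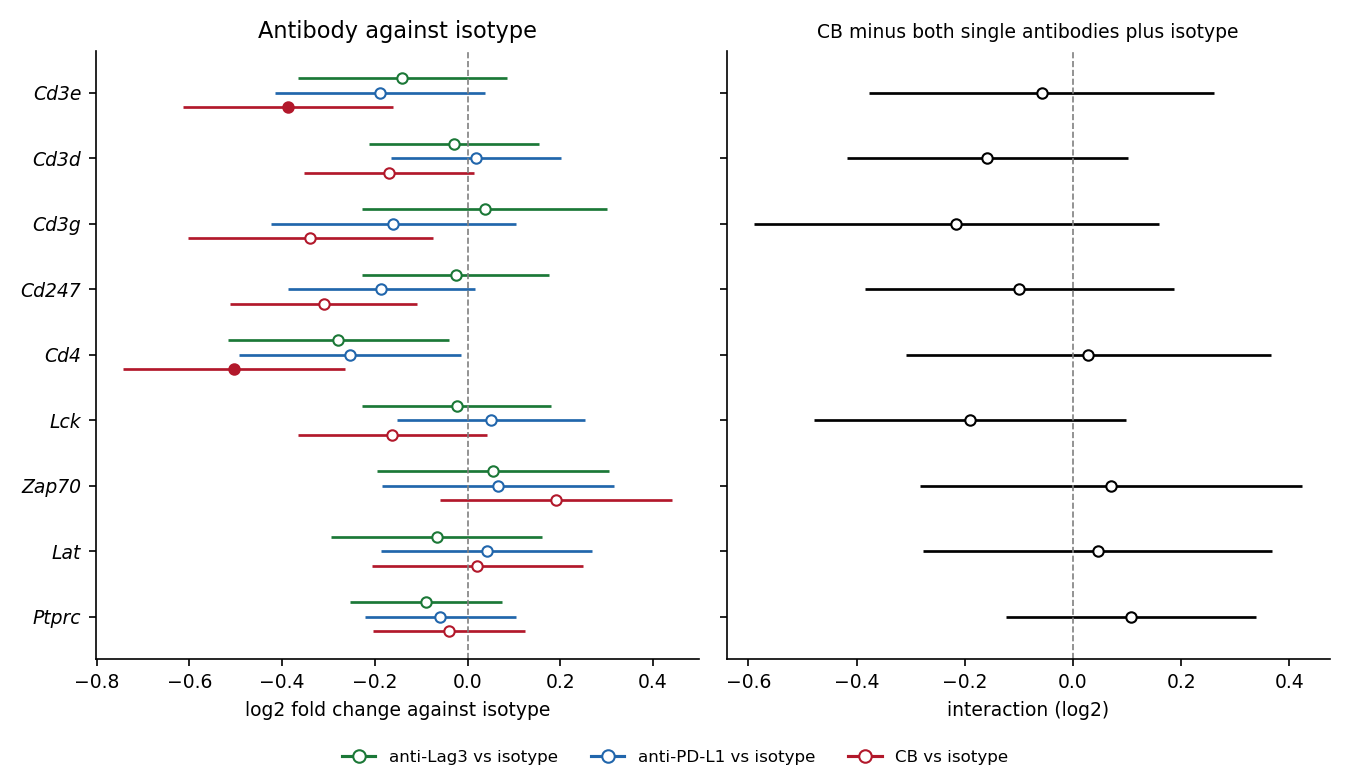
Log2 fold changes of the 9 genes against isotype for the groups with anti-Lag3, anti-PD-L1 and CB (left, x axis), and the interaction on the log2 scale (right, x axis); points are edgeR's estimates, bars their 95% intervals, and filled points passed at an adjusted p under 0.05. *Cd4* and *Cd3e* in CB are the filled points, and every interval of the interaction crosses 0.

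In order of group means, *Cd3e* and *Cd247* ran isotype, anti-Lag3, anti-PD-L1 and CB from high to low. For each of them 1 pair of neighbours in that order did not overlap between its samples, that of anti-PD-L1 and CB. The gaps were narrow, with the lowest anti-PD-L1 and highest CB samples at 202 and 201 CPM for *Cd3e* and at 356 and 353 for *Cd247*. The share of all genes with such a gap was not counted. For *Cd4* the order had isotype highest, anti-PD-L1 just above anti-Lag3, and CB lowest, and each neighbouring pair overlapped. *Cd3d*, *Cd3g* and *Lck* were also lowest in CB, while *Zap70* was highest there, and for none of these 4 did neighbouring groups stand apart. *Ptprc* ranged between group means of 856 and 911 CPM and *Lat* between 264 and 284.

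Across the 12 samples the levels of *Cd3e*, *Cd3d*, *Cd3g*, *Cd247* and *Cd4* were positively correlated, with Pearson's r from 0.45 to 0.67 for their 10 pairs on the log2 CPM scale. Pairs of these genes with *Lck*, *Lat* or *Ptprc* ran from -0.28 (*Cd3g* and *Ptprc*) to 0.41 (*Cd3d* and *Lat*). The spread of r over pairs of all genes was not computed. *Zap70* ran against *Cd3g* (r = -0.70) and against *Cd3e* (r = -0.41). These coefficients describe 12 samples that share the contrast between groups as well as library and sorting effects. Among the 8631 genes whose counts averaged 100 or more, those most like *Cd3e* were *Kpna2* (r = 0.94), *Txk* (0.91) and *Tfdp2* (0.90), and those most like *Cd4* were *Rac2* (0.91), *Tsc22d4* (0.89) and *Kbtbd2* (0.89).

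The wider set of early kinases and adaptors, 24 genes that work around the 9, held 4 called genes between CB and isotype, all lower, and 20 that did not pass, beside 4.29% of all genes called and 1.96% called lower. This list and that of the restraining genes below were written with earlier results of these data known. Their counts beside all genes are description and no test of enrichment. DESeq2, which called 918 genes in all where edgeR called 649, called 8 of the 24, adding *Fyn*, *Grb2*, *Plcg1* and *Fyb*, all lower. The median of the 24 was -0.27, beside 0 over all genes, and 19 of 24 values were below 0. *Themis*, an adaptor of T cells that acts near Lck and LAT, fell by 1.09 (SE 0.17, adjusted p = 2.05e-04, edgeR), from 131 ± 22.5 to 61.5 ± 6.31 CPM. It kept its call whichever of the 12 samples was removed. *Txk*, a Tec family kinase, fell by 0.74 (SE 0.17, adjusted p = 0.0099), from 61.5 ± 2.98 to 36.8 ± 6.69 CPM.

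*Grap2*, the adaptor Gads that links LAT to SLP-76, fell by 0.53 (SE 0.13, adjusted p = 0.0124). It was at 129, 128 and 143 CPM with isotype and at 77.6, 108 and 90.6 with CB, and the levels with anti-Lag3 (129 ± 7.48) and anti-PD-L1 (132 ± 7.44) were those of isotype to within the SD. *Skap1*, an adaptor on the route to integrins, fell by 0.51 (SE 0.12, adjusted p = 0.0083). Its isotype samples all stood between 193 and 194 CPM and its CB samples were at 125, 155 and 128. Leaving out 1 sample ended the call of *Txk* (CB sample 3), *Grap2* (isotype sample 3, CB sample 1 or 3) and *Skap1* (CB sample 1 or 3). The SLP-76 gene *Lcp2* (-0.15), the kinase gene *Fyn* (-0.28) and the costimulatory receptor *Cd28* (0.01) did not pass in edgeR, while *Fyn* passed in DESeq2 (adjusted p = 0.046).

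Of 17 genes that restrain signalling at the receptor, 2 were called, both lower, and 15 did not pass, with a median of -0.06, beside the same 4.29% and 1.96% of all genes. DESeq2, with its 918 calls in all, called 4 of the 17, adding *Ptpn22* and *Dok2*, both lower. *Sit1*, a transmembrane adaptor that binds the phosphatase SHP-2, fell by 0.97 (SE 0.24, adjusted p = 0.0164), from 31.4 ± 2.06 to 16.1 ± 4.39 CPM. *Pag1*, which holds the kinase Csk at the membrane, fell by 0.87 (SE 0.23, adjusted p = 0.022), from 48.2 ± 6.65 to 26.4 ± 7.79 CPM. Each kept its call in 8 of the 12 fits with a sample removed: *Pag1* lost its call without isotype sample 1 or 2 or CB sample 1 or 2, and *Sit1* without isotype sample 1 or 2 or CB sample 1 or 3. *Csk* itself was at -0.0033 and *Ptpn6*, the gene of SHP-1, at -0.01.

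In the same edgeR fit none of these genes was called in the other 6 comparisons. At an unadjusted p under 0.05 stood 6 of the 24 kinases and adaptors and 7 of the 17 restraining genes in CB against anti-PD-L1 (9.08% of all genes), and 5 and 5 in CB against anti-Lag3 (9.46%). The counts were 3 and 2 in anti-PD-L1 against isotype (7.84%), 2 and 1 in anti-Lag3 against isotype (5.21%), 1 and 2 between the single antibodies (4.69%) and 1 and 0 in the interaction (5.93%). DESeq2 called *Grap2* in CB against anti-PD-L1 (log2 fold change -0.53, adjusted p = 0.0119) and in CB against anti-Lag3 (-0.49, adjusted p = 0.0124). The genes of the blocked pathways, *Lag3* (0.60), *Pdcd1* for PD-1 (0.33) and *Cd274* for PD-L1 (-0.60), did not pass between CB and isotype in edgeR, with 0 of 3 also at an unadjusted p under 0.05 and in DESeq2. At an unadjusted p under 0.05 in edgeR, 1 of 3 stood in anti-PD-L1 against isotype (7.84% of all genes) and 1 of 3 in the interaction (5.93%).

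**Figure D3:**
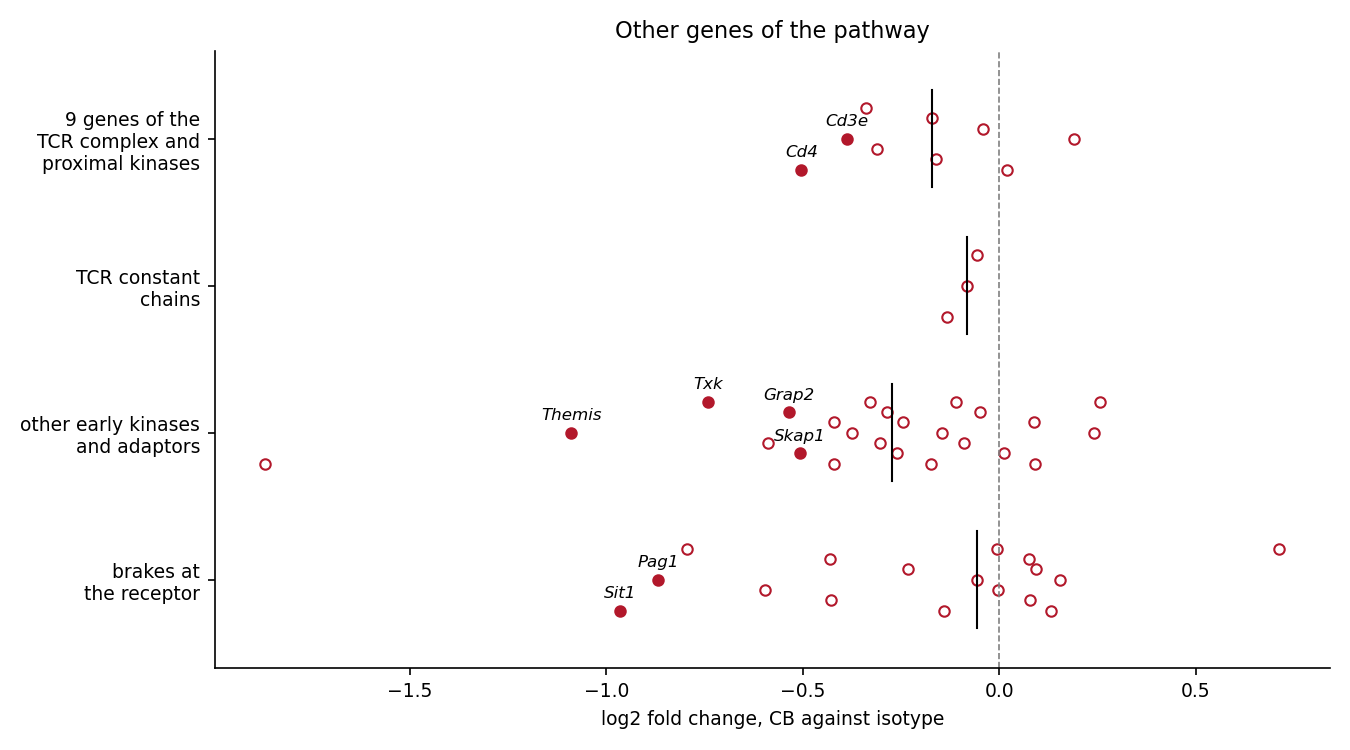
Log2 fold change between CB and isotype (x axis) for the 9 genes, 3 TCR constant genes, 24 other early kinases and adaptors and 17 brakes at the receptor (y axis); each circle is a gene, filled circles with names passed edgeR's test, and black lines mark the medians. All 8 filled circles lie below 0, and the medians of the 4 groups are -0.17, -0.08, -0.27 and -0.06.

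**Figure D4:**
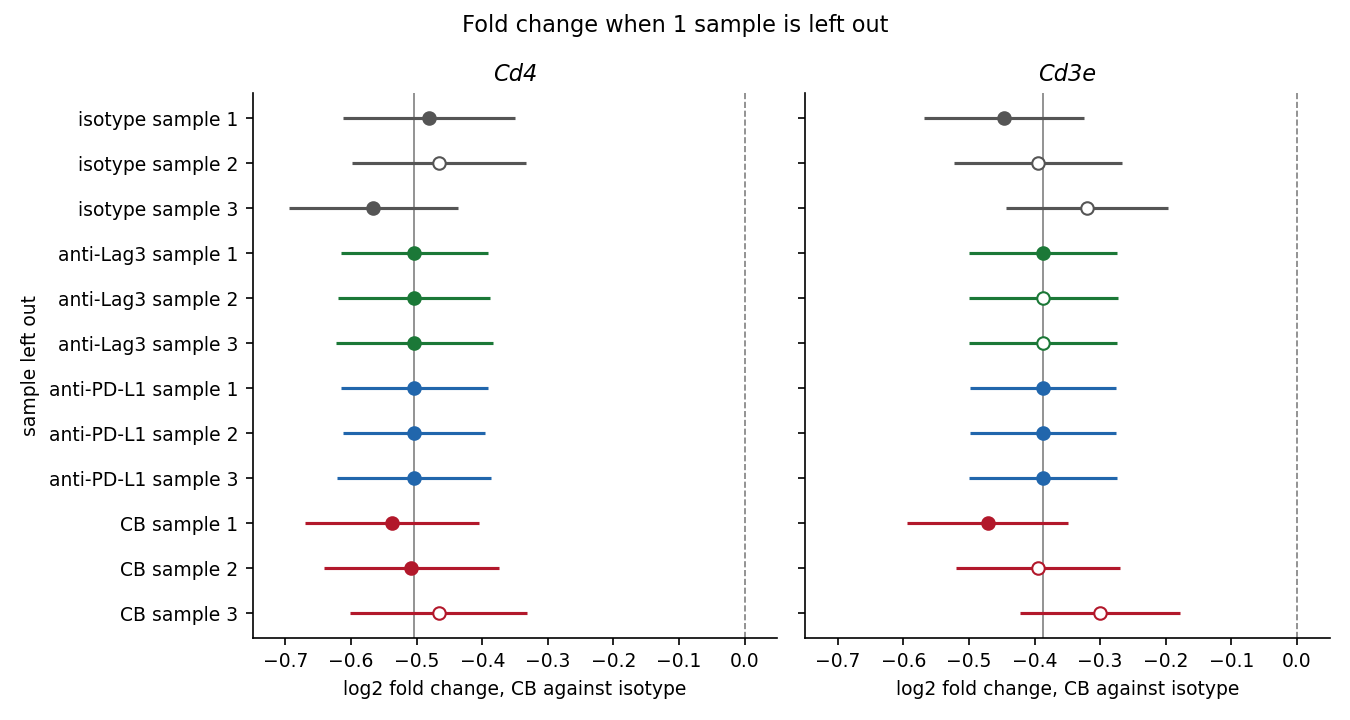
Log2 fold change of *Cd4* (left) and *Cd3e* (right) between CB and isotype (x axis) in the 12 fits that each left out 1 sample (y axis); bars are SEs, filled points passed, and the grey line is the value with all samples. Every point stays below 0, at -0.57 to -0.47 for *Cd4* and -0.47 to -0.30 for *Cd3e*, and 10 and 6 points are filled.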

How the data were processed

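3′ mRNA libraries were made from sorted splenic responder CD4+ T cells of 12 mice, 1 per library, from 5 ng of RNA with 18 PCR cycles and no molecular identifiers. Per the study's methods and the submitters' processing notes, the authors trimmed reads with Cutadapt 1.18, aligned them to GRCm38 with STAR 2.6.1a and assigned the unique alignments to genes with FeatureCounts 1.6.4; annotation release and strand setting are not given in the sources used here. The authors deposited raw counts, without normalization, and rlog values, which are log2 values from DESeq2. Counts were used for every test, and the rlog values served the check of replicate numbers. Symbols and coordinates came from GENCODE M21, which held 52073 of 56691 identifiers. The 114 spike-in transcripts (0.719% to 1.29% of reads) were left out.

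Genes with at least 30 reads summed over all samples were fitted in edgeR 4.0.16 (R 4.3.3, limma 3.58.1) with TMM scaling and 4 group means, followed by quasi-likelihood tests of 7 comparisons and Benjamini-Hochberg adjustment over 15138 genes. Replicates are separate mice. Alternatives were DESeq2 1.42.0 against 0 and against 0.2, its size factors in edgeR, no filter, filterByExpr, the replicate number as a block, the compared groups alone, and leaving out each sample. The genes, the lists around them and the motifs were chosen with earlier results of these data known, and the motifs with the sequences in view. Named genes are the 9, the listed genes called in any comparison and, for called members, the 3 genes with the highest Pearson r; *Lcp2*, *Fyn*, *Cd28*, *Csk*, *Ptpn6*, *Lag3*, *Pdcd1*, *Cd274* and the genes that DESeq2 alone called were named after their values were seen. Values of some single genes are not reported here. Other deposited data of the study were not analysed here.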

Additional observations from a re-analysis of the deposited data

How the results depend on the processing

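Between CB and isotype, 2 of the 9 genes were called with edgeR's own scaling, DESeq2's size factors, no filter and filterByExpr, and 3 with DESeq2 against 0. Testing for changes beyond 0.2 (log2) in DESeq2 called 0 of them, a fit of the compared groups alone called 1 (*Cd4*), and leaving out 1 sample called 0 to 2, with 0 without isotype sample 2 or without CB sample 3. The cause was not tested. Over all genes, the 649 calls of CB against isotype became 395 to 712 when 1 sample was left out, 918 with DESeq2 and 233 with its test against 0.2. Of the 24 kinases and adaptors that last test called 1 (*Themis*), and of the 17 restraining genes 0. CB against anti-Lag3 had 1 called member with DESeq2 against 0, which called 280 genes there. That test called 178 genes in CB against anti-PD-L1, 56 in anti-PD-L1 against isotype and 9 in anti-Lag3 against isotype. It called 10 between the single antibodies and 5 in the interaction.

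The sample numbers were not taken to pair the samples, since not every same-numbered pair met the limit of 0.1, and whether the numbers stand for sort batches is not stated in the sources used here. The paper attributes the second component of its principal component analysis largely to sort batches, and the main fit holds no batch term. Over rlog values, same-numbered samples of different groups correlated between -0.08 and 0.29 in their deviations from the group means, with 10 of 18 pairs over 0.1, and 7 of 12 samples correlated best with their own number (9 of 12 over log2 CPM). With the replicate number as a block, 3 members were called between CB and isotype, *Cd247* (adjusted p = 0.0411) beside *Cd3e* and *Cd4*, and 843 genes in all. The block also called 5 of the 24 kinases and adaptors and 5 of the 17 restraining genes there, *Grap2* in CB against anti-PD-L1 (adjusted p = 0.0347), and *Grap2* (0.0437) and *Themis* (0.039) in CB against anti-Lag3. With values centred within number, the genes most like *Cd4* became *Rab37* (r = 0.95), *Pycard* and *Med9*.

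Signs turned in 21 cases, each on leaving out 1 sample, for log2 fold changes that did not pass, and their ranges over those fits follow. In CB against isotype they were -0.053 to 0.083 for *Lat* and -0.080 to 0.0065 for *Ptprc*. In anti-PD-L1 against isotype they were -0.034 to 0.078 for *Cd3d*, -0.0071 to 0.14 for *Lck*, -0.011 to 0.13 for *Zap70* and -0.057 to 0.15 for *Lat*. In anti-Lag3 against isotype they were -0.10 to 0.025 for *Cd3d*, -0.033 to 0.13 for *Cd3g*, -0.11 to 0.046 for *Cd247*, -0.082 to 0.024 for *Lck* and -0.0032 to 0.12 for *Zap70*. In CB against anti-PD-L1 they were -0.13 to 0.078 for *Lat* and -0.033 to 0.070 for *Ptprc*. In anti-PD-L1 against anti-Lag3 they were -0.0016 to 0.12 for *Cd3d*, -0.10 to 0.14 for *Cd4*, -0.066 to 0.049 for *Zap70* and -0.020 to 0.082 for *Ptprc*. In the interaction they were -0.14 to 0.030 for *Cd3e*, -0.055 to 0.15 for *Cd4*, -0.043 to 0.15 for *Zap70* and -0.061 to 0.14 for *Lat*. With 3 mice a group, the standard errors of the 9 genes against isotype were 0.08 to 0.13, which sets the smallest change that could be seen.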

Other observations

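The sorted cells, gated as CD4+ and CD8-, held RNA of the CD8 beta chain gene *Cd8b1* in every sample, at 40.0 to 45.3 CPM with isotype, 27.4 to 46.4 with anti-Lag3, 24.4 to 30.5 with anti-PD-L1 and 25.0 to 33.2 with CB. Between CB and isotype *Cd8b1* had a log2 fold change of -0.50 (SE 0.21, adjusted p = 0.242 in edgeR). *Cd8a*, the partner gene without which the beta chain is not known to reach the surface, was at 0 to 3.24 CPM. *Trdc*, the delta chain constant gene that lies within the *Tra* locus, was at 3.14 to 15.1 CPM. The beta chain segment *Trbv13-2* had too few reads to be tested.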
